A study of Mus musculus with 8 samples.

Results

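The Notch pathway was followed through 10 genes in whole fetal mouse lungs, with and without occlusion of the trachea. The genes were chosen by symbol, and each was matched to 1 of the 55385 gene IDs in the count tables. They are the 4 receptors Notch1, Notch2, Notch3 and Notch4, the 4 ligands Jag1, Jag2, Dll1 and Dll4, and the 2 target genes Hes1 and Hey1. All lungs came from C57BL/6 fetuses at E18.5. In the tracheal occlusion (TO) group, the trachea had been tied off through the uterine wall at E16.5, and the same suture closed 1 carotid artery and 1 jugular vein. Dams of operated litters were given progesterone at E17.5. The sources used here do not say whether the control fetuses were operated on, which litters the fetuses came from or whether lungs were pooled. Libraries are named by group and replicate number, from control 1 to control 4 and from TO 1 to TO 4.

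Notch receptors sit in the cell membrane and are bound by ligands on a neighbouring cell. Binding leads to cleavage of the receptor, and its intracellular domain enters the nucleus, joins the DNA-binding protein RBPJ and switches on genes such as those of the Hes and Hey families, which are transcriptional repressors. In the developing lung this signal is best known for setting the balance of secretory, ciliated and neuroendocrine cells in the airway epithelium and for patterning arteries and the smooth muscle around them.

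Read pairs on genes numbered 22822261 to 35002061 in 7 libraries and 270078 in TO 1. There 1 read pair is worth 3.70 CPM (counts scaled to a common library total), before the TMM scaling that the levels below carry. TO 1 stood apart in other ways. The summed level of 9 thymocyte genes was 485 CPM there and 2.08 to 23.9 CPM in the other libraries, and 5 basal cell genes summed to 389 CPM against at most 227 CPM elsewhere. The specimen names in the study's own display of sample distances are those of controls 1, 2 and 4 and TO 2, 3 and 4. These 6 libraries were used for the main comparison, and control 3 and TO 1 are given beside them. The lung identity of the samples was clear in all 8 libraries, with 6 alveolar type 2 cell genes summing to 6504 to 19855 CPM. Marker levels of heart muscle varied widely, from 537 to 7230 CPM over 8 genes. Cell cycle genes, 8 in number, were lowest in control 3 and TO 3, at 407 and 356 CPM, and reached 773 to 1572 CPM elsewhere.

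Occlusion was accompanied by no change in the 10 genes that passed the test. All 10 were tested, and with edgeR at an adjusted p under 0.1 none was called, as was the case for all genes tested, of which 0 of 21859 (0%) were called. At an unadjusted p under 0.05, 1 of the 10 members (Dll1) and 1123 of all genes (5.14%) passed. DESeq2 called 44 genes and limma-voom 0, and no member was among them. The fitted log2 fold change (TO minus control) was below 0 for 7 members and above 0 for 3, with a median of -0.04 against 0.00 over all genes, on a scale where the median absolute value of all genes was 0.22. Groups did not overlap for 2 of the 10 members, Notch2 and Dll1, compared with 10.9% of all genes. In bulk tissue, fewer cells of a type and less RNA per cell cannot be told apart, which holds for every value that follows.

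**Figure D1:**
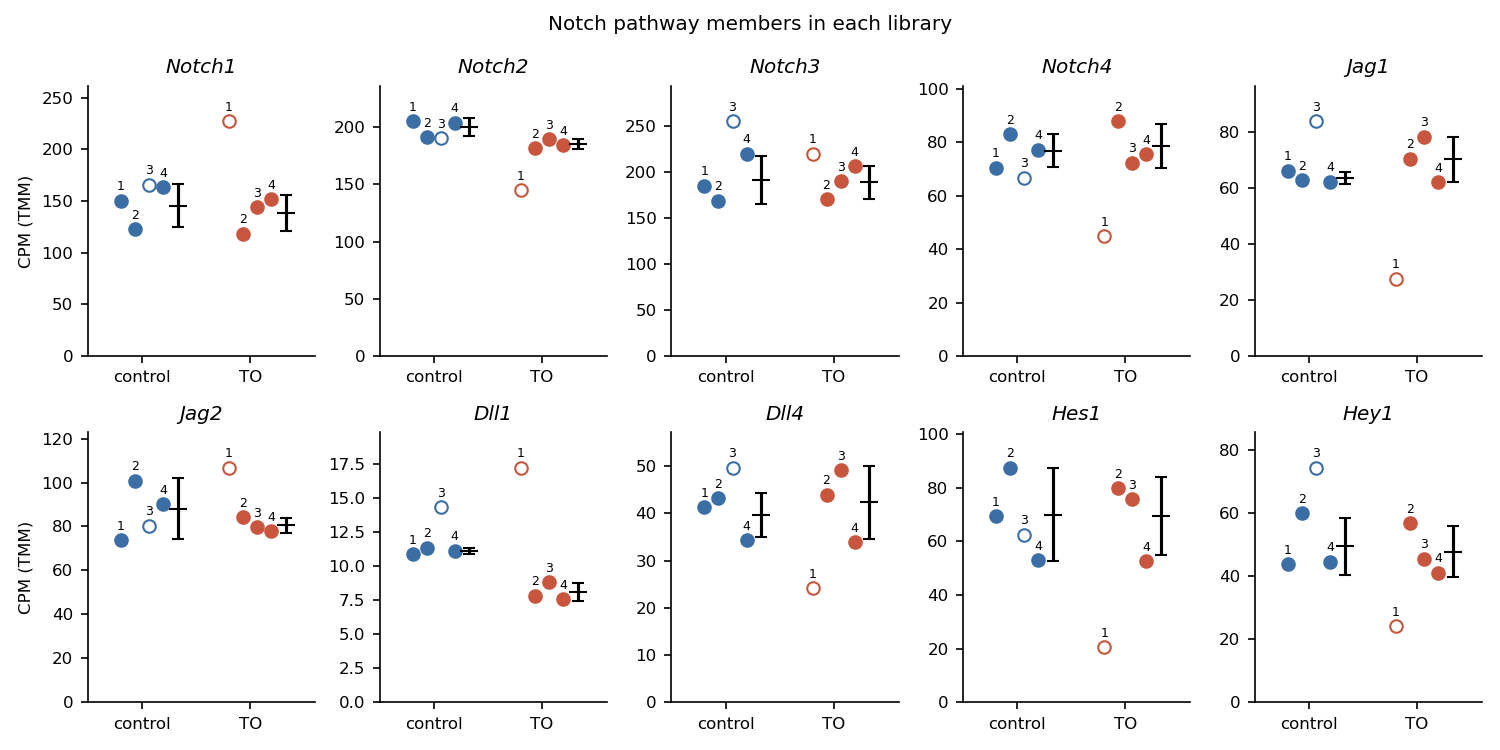
Level of each of the 10 members in each library (CPM with TMM scaling, y axis from 0; x axis, group), with replicate numbers above the points. Filled points are the 6 libraries of the main comparison and open points are control 3 and TO 1; black bars are the mean and SD of the 3 filled points. The filled points of the groups stand apart for Notch2 and Dll1 and overlap for the other 8 genes.

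Because CPM grows with transcript length, levels were compared between genes as CPM per kilobase of merged exons, over the 6 libraries. Hes1 had the highest level, at 34.2 ± 7.02 CPM per kilobase (SD, n = 6). Notch3 followed with 23.5 ± 2.48, Notch2 with 17.9 ± 0.913 and Hey1 with 14.9 ± 2.38 CPM per kilobase. Jag2, Jag1, Dll4, Notch1 and Notch4 lay close together, between 12.1 and 9.65 CPM per kilobase. Dll1 was lowest at 2.27 ± 0.408 CPM per kilobase. Between neighbours in this order the ranges over libraries overlapped, except between Notch3 and Notch2 and between Notch4 and Dll1. With the longest coding sequence as the length, Hey1 moved from rank 4 to rank 2, while Hes1 stayed at rank 1 and Dll1 at rank 10. The spread over the 6 libraries was also unequal. The coefficient of variation was 5.11% for Notch2, a value undercut by 4.22% of the 10803 genes with a mean of at least 10 CPM, and 20.5% for Hes1, where the median of those genes was 12.4%.

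**Figure D2:**
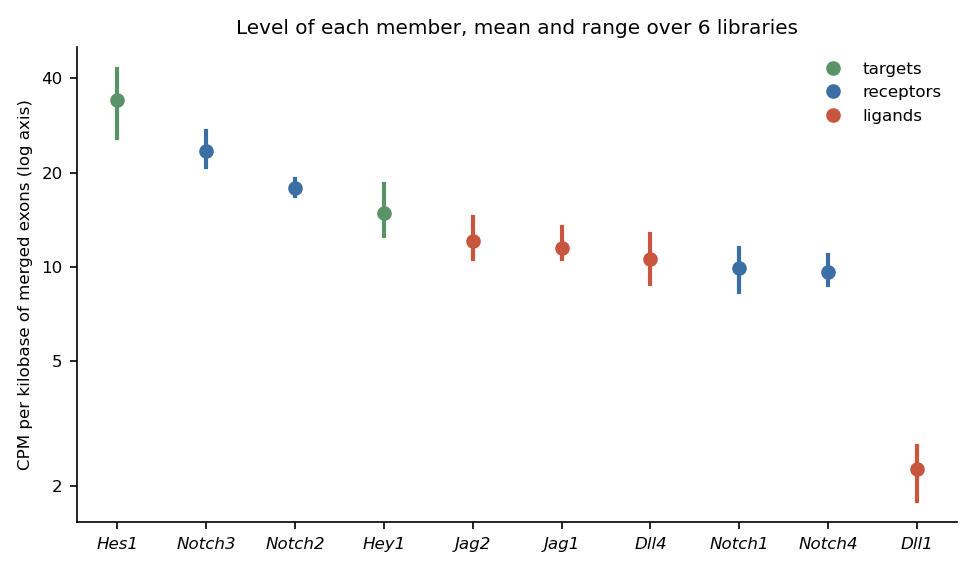
Level of each member per kilobase of merged exons (CPM per kb, log axis), ordered from high to low; points are means and lines the range over the 6 libraries, coloured by role. Hes1 leads at 34.2 and Dll1 closes the order at 2.27, apart from the 5 genes between 9.65 and 12.1.

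Notch1 (ENSMUSG00000026923.15, chr2:26457903-26516663, minus strand, GRCm38) is a receptor required for arterial and T cell development, and it also acts in the airway epithelium. Its level was 150, 123, 166 and 164 CPM in controls 1 to 4 and 227, 118, 144 and 152 CPM in TO 1 to 4. The high value was that of TO 1 and rested on 66 read pairs, whose exact 95% Poisson interval of 176 to 289 CPM (counting error only) lay above every other library. The same library held the thymocyte genes, among them Cd3e at 20.7 CPM (6 read pairs) and Ptcra at 10.3 CPM (3 read pairs). Elsewhere Cd3e was at 0 to 0.826 CPM and Ptcra at 0 to 0.578 CPM. The part of thymic RNA in the Notch1 level of TO 1 was not tested. Over the 6 libraries, the log2 fold change of Notch1 was -0.08 ± 0.15 (SE, n = 3 per group), with an interval from -0.41 to 0.25 and an adjusted edgeR p of 0.974. With all 8 libraries it was 0.04. Exons of Notch1 share 1068 bases with the antisense gene 0610009E02Rik, and 21.7% of the read pairs on either strand of Notch1 were set aside as overlapping more than 1 gene.

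Notch2 (ENSMUSG00000027878.11, chr3:98013527-98150361, plus strand) is the receptor linked to secretory cell identity in the airway and to alveolar development. It measured 205, 191, 190 and 204 CPM in controls 1 to 4 and 145, 182, 190 and 184 CPM in TO 1 to 4. Every TO library was below every control library, but the closest pair, TO 3 at 189.6 CPM and control 3 at 190.4 CPM, was nearly level. No overlap was seen for 3.96% of all genes in the 7 libraries without TO 1, where both Notch2 and Dll1 belonged to them, and for 2.0% in all 8, where Notch2 was the only such member. TO 1 rested on 42 read pairs, with a counting interval of 104 to 195 CPM that reached the controls. The means over the 6 libraries were 200.05 ± 7.63 and 185 ± 4.10 CPM (SD, n = 3 per group). The log2 fold change was -0.11 ± 0.10 (SE) with an interval from -0.33 to 0.10, and the adjusted edgeR p was 0.918. Exons of Notch2 share 541 bases with Gm42820, a counted gene on the same strand. Read pairs left out for that overlap cannot be seen in the strand counts.

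Notch3 (ENSMUSG00000038146.8, chr17:32120820-32166852, minus strand), the receptor of vascular smooth muscle and pericytes, had 185, 169, 256 and 220 CPM in controls and 220, 171, 191 and 206 CPM in TO lungs. Control 3 was highest and the groups overlapped, with a log2 fold change of -0.02 ± 0.13 (SE, n = 3 per group; edgeR adjusted p = 0.993). Notch4 (ENSMUSG00000015468.14, chr17:34564268-34588503, plus strand), found mainly in endothelium, had 70.5, 83.0, 66.7 and 77.2 CPM in controls. In TO lungs it had 44.8, 87.9, 72.4 and 75.5 CPM, the first of them from 13 read pairs. Here too the groups overlapped, with a log2 fold change of 0.03 ± 0.12 (SE, n = 3 per group; edgeR adjusted p = 0.983).

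The mixture of receptors was compared within libraries. As a share of the summed level per kilobase of the 4 receptors, Notch3 made up 36.3% to 45.7%, Notch2 25.5% to 31.1%, Notch1 14.5% to 17.2% and Notch4 12.0% to 19.1% in the 7 libraries without TO 1. In TO 1 the share of Notch1 was 25.7% and that of Notch4 8.93%, from 66 and 13 read pairs. The counting interval of the Notch4 level there, 23.8 to 76.5 CPM, met the range of the other libraries.

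Of the ligands, Jag1 (ENSMUSG00000027276.7, chr2:137081456-137116644, minus strand), which acts in arteries, their smooth muscle and the airway epithelium, had 66.1, 62.7, 83.8 and 62.3 CPM in controls. In TO 1 to 4 it had 27.5, 70.4, 78.2 and 62.0 CPM. The value of TO 1 came from 8 read pairs, with a counting interval of 11.9 to 54.3 CPM that lay below the other 7 libraries. The log2 fold change over the 6 libraries was 0.14 ± 0.12 (SE, n = 3 per group; edgeR adjusted p = 0.919), and -0.10 with all 8. Jag2 (ENSMUSG00000002799.6, chr12:112907819-112929776, minus strand), the second Jagged ligand of the airway epithelium, had 73.7, 101, 80.4 and 90.0 CPM in controls. It had 107, 84.3, 79.5 and 77.9 CPM in TO lungs. Values of both Jagged ligands overlapped between groups, and the log2 fold change of Jag2 was -0.13 ± 0.13 (SE, n = 3 per group; edgeR adjusted p = 0.937).

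Dll4 (ENSMUSG00000027314.6, chr2:119325784-119335962, plus strand), the ligand of arterial and tip endothelial cells, had 41.3, 43.2, 49.6 and 34.3 CPM in controls and 24.1, 43.9, 49.2 and 33.9 CPM in TO lungs. Apart from TO 1, with 7 read pairs, the values of the groups covered nearly the same range. Its log2 fold change was 0.09 ± 0.16 (SE, n = 3 per group; edgeR adjusted p = 0.969). For Dll4 and Notch3, 13.0% and 11.2% of the read pairs on either strand were set aside because exons overlap those of an antisense gene.

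Dll1 (ENSMUSG00000014773.13, chr17:15367354-15376872, minus strand) is the Delta ligand carried by neuroendocrine cells in the lung and by progenitor cells in many tissues. It was the scarcest member and the one with the largest difference. It had 10.9, 11.3, 14.3 and 11.1 CPM in controls 1 to 4. In TO lungs it had 17.2 CPM in TO 1, and 7.81, 8.83 and 7.58 CPM in TO 2 to 4. Thus TO 2, 3 and 4 were below all 4 controls, and TO 1 was above all of them. The value of TO 1 came from 5 read pairs, with a counting interval of 5.59 to 40.2 CPM that covered both groups.

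Over the 6 libraries, the means of Dll1 were 11.1 ± 0.239 CPM in controls and 8.08 ± 0.667 CPM in TO lungs (SD, n = 3 per group). The log2 fold change was -0.46 ± 0.18 (SE), with an interval from -0.88 to -0.05. The unadjusted p of edgeR was 0.0332 and the adjusted p 0.907, so that the difference did not pass the test over all genes. The estimate was -0.56 without TO 1 (7 libraries, with an unadjusted p of 0.0170) and -0.45 with all 8 libraries (with an unadjusted p of 0.0904). Dll1 made up 6.87% to 8.04% of the summed ligand level per kilobase in the 4 controls and 4.95% to 5.54% in TO 2 to 4, and 13.4% in TO 1. Jag1, Jag2 and Dll4 each made up 25.3% to 37.0% in the 7 libraries without TO 1.

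Other measurements stand beside the Dll1 difference. Neuroendocrine genes, 6 in number, summed to 16.6 to 17.1 CPM in the controls and 17.3 to 18.2 CPM in the TO lungs of the main comparison. Of the 6 genes, 3 had estimates above 0. Their sum was 13.2 CPM in control 3 and 10.3 CPM in TO 1, both outside the main comparison. Cell cycle genes summed to 1197 to 1572 CPM in these controls and 356 to 1259 CPM in these TO lungs. Macrophage genes, 4 in number, summed to 85.4 to 92.6 CPM in the controls and 95.02 to 132 CPM in the TO lungs. In these libraries neither the macrophage nor the neuroendocrine sums overlapped between groups, beside 10.9% of all genes taken singly. Interferon-stimulated genes summed to 26.8 to 39.2 CPM and 24.0 to 321 CPM, with 5 of 6 at an unadjusted edgeR p under 0.05. Their TO sums were 24.0, 321 and 84.0 CPM in TO 2, 3 and 4. Control 3 and TO 1, outside the main comparison, had 180 and 82.6 CPM. Secretory airway genes summed to 604 to 1017.5 CPM and 675 to 1812 CPM, with 2 of 5 at that p. Of all genes, 5.14% passed it. The part of the cell mixture in the Dll1 difference was not tested. The strand counts of Dll1 added up to its unstranded count in every library, so no read pair was set aside for overlap. However, 867 of the 4219 exonic bases of Dll1 are shared with the antisense gene A930024N18Rik, which has no count of its own here, so that read pairs from either gene in these bases were counted as Dll1 and cannot be told apart.

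The RefSeq promoter table (GRCm38.p6, 250 bases before to 50 bases after a start) held 9 windows for 8 of the 10 members, and no entry for Hes1 or Hey1. Both strands of the 250 bases before each start were searched for GTGGGAA, letters bound by RBPJ, and for the E-box CAGCTG, which reads the same on both strands and is bound by factors of the basic helix-loop-helix family. GTGGGAA was found in 5.42% of all 32851 windows and in 0 of the 9 member windows. CAGCTG was found in 13.0% of all windows and, among members, in windows of Dll1 and Jag1. The Dll1 window is shown as the upstream sequence of the member that differed most, with the E-box in capitals. It covers chr17:15376933-15377182 on the minus strand, overlaps an exon of the antisense gene A930024N18Rik, and has its E-box 186 bases before the first annotated exon of Dll1.

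Dll1: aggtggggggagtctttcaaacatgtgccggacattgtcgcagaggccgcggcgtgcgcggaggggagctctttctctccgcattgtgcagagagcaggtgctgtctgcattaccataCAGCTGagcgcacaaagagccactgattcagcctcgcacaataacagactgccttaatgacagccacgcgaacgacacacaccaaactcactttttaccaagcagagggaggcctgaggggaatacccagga

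**Figure D3:**
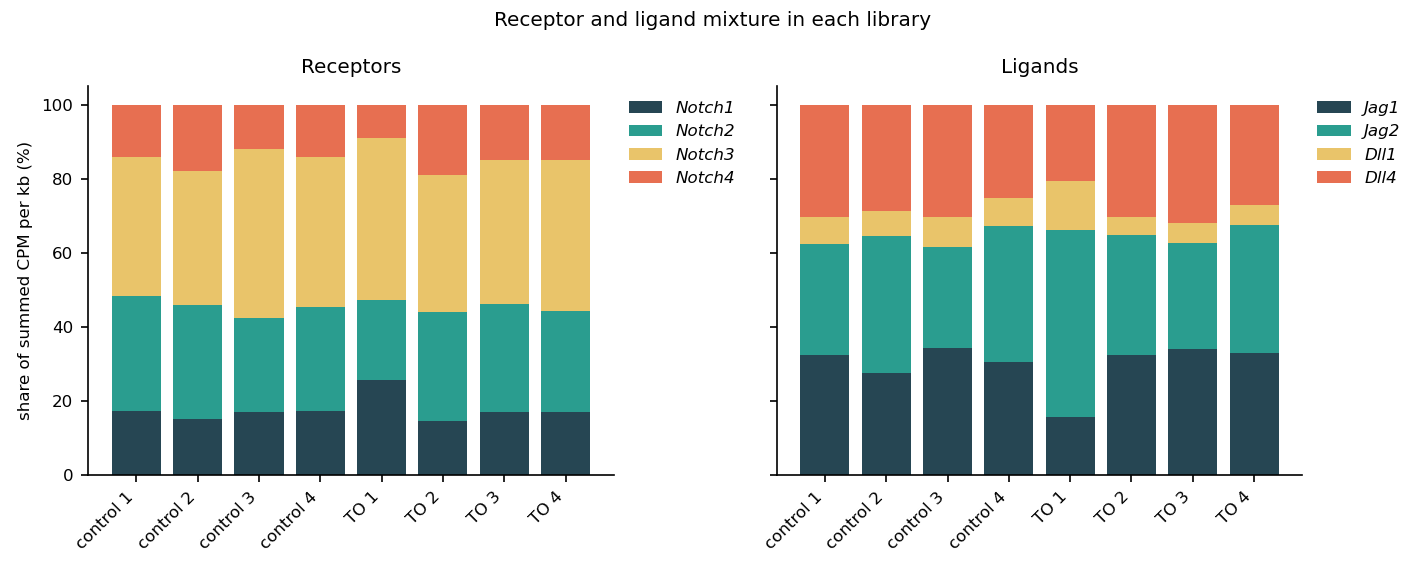
Share of each receptor (left) and each ligand (right) in the summed CPM per kilobase of its class (y axis, %), in each of the 8 libraries (x axis). Dll1 takes 6.87% to 8.04% of the ligand level in the 4 controls and 4.95% to 5.54% in TO 2 to 4. TO 1 differs from the rest in both panels, but its shares rest on 5 to 66 read pairs per gene, and counting error is not drawn.

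Target genes are common readouts of Notch signaling. Hes1 (ENSMUSG00000022528.8, chr16:30064384-30067796, plus strand), a repressor that keeps airway progenitors from the neuroendocrine fate, had 69.5, 87.5, 62.6 and 53.0 CPM in controls. It had 20.7, 79.8, 75.7 and 52.7 CPM in TO lungs. The lowest value was that of TO 1, with 6 read pairs and a counting interval of 7.58 to 44.96 CPM that lay below the other 7 libraries. TO 2 and TO 3 fell inside the range of the controls, and TO 4 lay just below control 4. The means over the 6 libraries were 70.0 ± 17.2 and 69.4 ± 14.6 CPM (SD, n = 3 per group), with a log2 fold change of -0.01 ± 0.20 (SE; edgeR adjusted p = 0.996) and an interval from -0.47 to 0.44.

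Hey1 (ENSMUSG00000040289.8, chr3:8663359-8667256, minus strand), a repressor in arterial endothelium and in airway epithelium, had 43.9, 60.1, 74.5 and 44.6 CPM in controls. In TO lungs it had 24.1, 56.8, 45.6 and 41.1 CPM. Control 3 was highest and TO 1, with 7 read pairs, lowest, and the groups overlapped. The log2 fold change was -0.05 ± 0.17 (SE, n = 3 per group; edgeR adjusted p = 0.982), with an interval from -0.43 to 0.33. With control 3 added (7 libraries) it was -0.22, and with all 8 libraries -0.31, and edgeR called it in neither.

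Further targets were counted beside these. The list holds Hes5, Hes7, Hey2, Heyl and Nrarp, and none of the 4 that could be tested passed at an unadjusted p under 0.05. Heyl, a target in smooth muscle and pericytes and the one with the highest level per kilobase, had 48.6, 48.7, 50.6 and 51.3 CPM in controls and 51.6, 43.1, 43.8 and 50.1 CPM in TO lungs. Its log2 fold change was -0.12 ± 0.12 (SE, n = 3 per group; edgeR adjusted p = 0.938).

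Hey2, a target in arteries and in heart muscle, had 5.39, 4.97, 10.5 and 11.8 CPM in controls and 24.1, 6.25, 8.59 and 21.3 CPM in TO lungs. The heart muscle genes summed to 763, 537, 5328 and 4220 CPM in controls and 7230, 2488, 3730 and 6003 CPM in TO lungs, so that the 8 libraries stood in the same order for both, except that controls 3 and 4 exchanged places. The part of heart tissue in the Hey2 level was not tested. Nrarp, an inhibitor made in response to Notch, shares 2051 of its 2582 exonic bases with an antisense gene, and 85.2% of the read pairs on either strand of it were set aside, so its level is uncertain. Its log2 fold change was 0.14 on the unstranded counts and -0.26 with the counts of both strands added. In the unstranded counts Hes5 had no read pair in any library. At 3 read pairs, before TMM scaling, this allows up to 0.0857 to 0.131 CPM in 7 deep libraries and 11.1 CPM in TO 1. This limit holds for pairs on Hes5 alone, since 433 of its 1363 exonic bases are shared with the antisense gene Gm20421, and with both strands added it had 2 read pairs in TO 4 and 0 in the other libraries. Hes7 reached 0.568 CPM at most in the unstranded counts, from 20 read pairs in TO 4. With both strands added it had 58 there, and 72.7% of its read pairs on either strand were set aside over the 6 libraries, so its level is uncertain too.

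The promoter table held windows for 4 of these 5 targets and no entry for Heyl. GTGGGAA was found in 3 of the 4, those of Hes5, Hes7 and Hey2. The windows of Hey2 and Hes5 are shown because they carry the same RBPJ letters while Hey2 had read pairs in every library and Hes5 had none in the unstranded counts. Capitals mark GTGGGAA or its reverse complement. The Hey2 window covers chr10:30842802-30843033 on the minus strand, with 1 match 182 bases before the first annotated exon. The Hes5 window covers chr4:154960673-154960922 on the plus strand, with 2 matches, 1 on each strand, 219 and 76 bases before the first annotated exon, and it overlaps an exon of Gm20421 on the other strand.

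Hey2: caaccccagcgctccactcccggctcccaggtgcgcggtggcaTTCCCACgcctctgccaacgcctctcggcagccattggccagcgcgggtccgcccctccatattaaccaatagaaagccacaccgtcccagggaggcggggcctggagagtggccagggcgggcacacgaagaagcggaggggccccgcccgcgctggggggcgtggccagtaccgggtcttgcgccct
Hes5: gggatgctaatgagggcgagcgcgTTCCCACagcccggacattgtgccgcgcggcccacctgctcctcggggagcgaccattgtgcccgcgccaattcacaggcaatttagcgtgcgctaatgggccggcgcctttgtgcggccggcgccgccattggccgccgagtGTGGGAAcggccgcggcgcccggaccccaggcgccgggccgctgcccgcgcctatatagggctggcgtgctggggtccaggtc

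A match in these windows is a description of letters and says nothing of binding in these lungs, nor does the lack of one.

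Several members belong to vessels, so their levels were also set against markers of those cells. The mean log2 CPM of 8 endothelial genes was subtracted from the log2 CPM of Notch1, Notch4, Dll4 and Hey1, and that of 7 mural genes from Notch3. The endothelial genes summed to 1890 to 2080 CPM in controls 1, 2 and 4 and 1574 to 2325 CPM in TO 2 to 4. On this log2 scale, TO minus control was 0.04 for Notch1, 0.14 for Notch4, 0.20 for Dll4, 0.07 for Hey1 and -0.12 for Notch3. The exact two-sided permutation p was 0.4 or more for each, and 0.875 or more after Benjamini-Hochberg adjustment over the 5 relations. With 3 against 3 libraries the exact p cannot go below 0.1. With all 8 libraries, where it can reach 0.0286, the differences of Hey1 and Notch3 changed sign, to -0.22 (exact permutation p = 0.4) and 0.03 (exact permutation p = 0.857). The value of Notch3 also turns on 2 of the mural genes. Of the read pairs on either strand of Tagln, 99.6% were set aside, and Des was highest in TO 1 and TO 4 (293 and 185 CPM), the libraries with the most heart muscle signal. Without Tagln the difference of Notch3 was -0.10, and without Tagln and Des it was 0.02 in 6 libraries and 0.11 in all 8, with an exact permutation p of 0.429 or more.

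The remaining pathway genes were taken from a list of 46 in 7 roles, the further targets included. Of these, 45 were tested and none was called with edgeR. At an unadjusted p under 0.05, 2 of the 45 passed, beside 5.14% of all genes, and the median log2 fold change was 0.02. Groups of the 6 libraries did not overlap for 4 of them, Dner, Furin and Fbxw7 (TO higher) and Rfng (TO lower), beside 10.9% of all genes.

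Furin, the protease that cuts Notch receptors on their way to the membrane, had 134, 141, 173 and 145 CPM in controls and 127, 168, 175 and 155 CPM in TO lungs. The libraries of the main comparison did not overlap, but control 3 lay with the TO lungs and TO 1 below all controls. Its log2 fold change was 0.24 ± 0.10 (SE, n = 3 per group; unadjusted p of 0.0368 and adjusted p = 0.907 with edgeR). Of the 10 cleavage genes, 6 had estimates above 0 and 4 below. Adam10, the membrane protease that makes the ligand-dependent cut and the gene with the highest level per kilobase of this role, had 189 to 228 CPM in controls and 158 to 222 CPM in TO lungs, with a log2 fold change of -0.01 ± 0.12 (SE, n = 3 per group; edgeR adjusted p = 0.995).

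Rfng, a Fringe enzyme that adds sugars to the receptors and alters which ligands they answer to, had 32.0, 38.3, 30.0 and 33.5 CPM in controls. In TO lungs it had 17.2, 28.4, 29.0 and 26.9 CPM. All TO libraries were below all controls, in the 6 as in the 8 libraries, and TO 1 rested on 5 read pairs with a counting interval of 5.59 to 40.2 CPM. Among the 45 tested genes of the list, 1 (Rfng) showed no overlap in all 8 libraries, beside 2.0% of all genes. For Rfng the log2 fold change was -0.30 ± 0.13 (SE, n = 3 per group; unadjusted p of 0.0463 and adjusted p = 0.907 with edgeR). The estimates of all 5 glycosylation genes were below 0, from -0.30 to -0.0022, and Rfng alone passed at an unadjusted p under 0.05.

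In the other roles no gene passed at an unadjusted p under 0.05. Dlk1, a ligand-like protein without the domain that activates the receptor, had the highest level per kilobase of the whole list (129 CPM per kilobase), at 557 to 722 CPM in controls and 516 to 975 CPM in TO lungs. Its log2 fold change was 0.18 ± 0.16 (SE, n = 3 per group; edgeR adjusted p = 0.923), and TO 2 was highest. Mib1, the ubiquitin ligase that makes ligands active, had 173 to 268 CPM in controls and 178 to 226 CPM in TO lungs, with a log2 fold change of 0.03 ± 0.13 (SE, n = 3 per group; edgeR adjusted p = 0.982). Of the 8 genes of receptor and intracellular domain turnover, 7 had estimates above 0, and Dtx3, the highest per kilobase, was the exception with -0.10 ± 0.17 (SE, n = 3 per group; edgeR adjusted p = 0.966). Of the 10 genes of the nuclear complex, 7 had estimates above 0. Beside these counts by role, 10777 of all 21859 genes tested had estimates above 0 and 11082 below. Whether any role moved as a set was not tested.

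**Figure D4:**
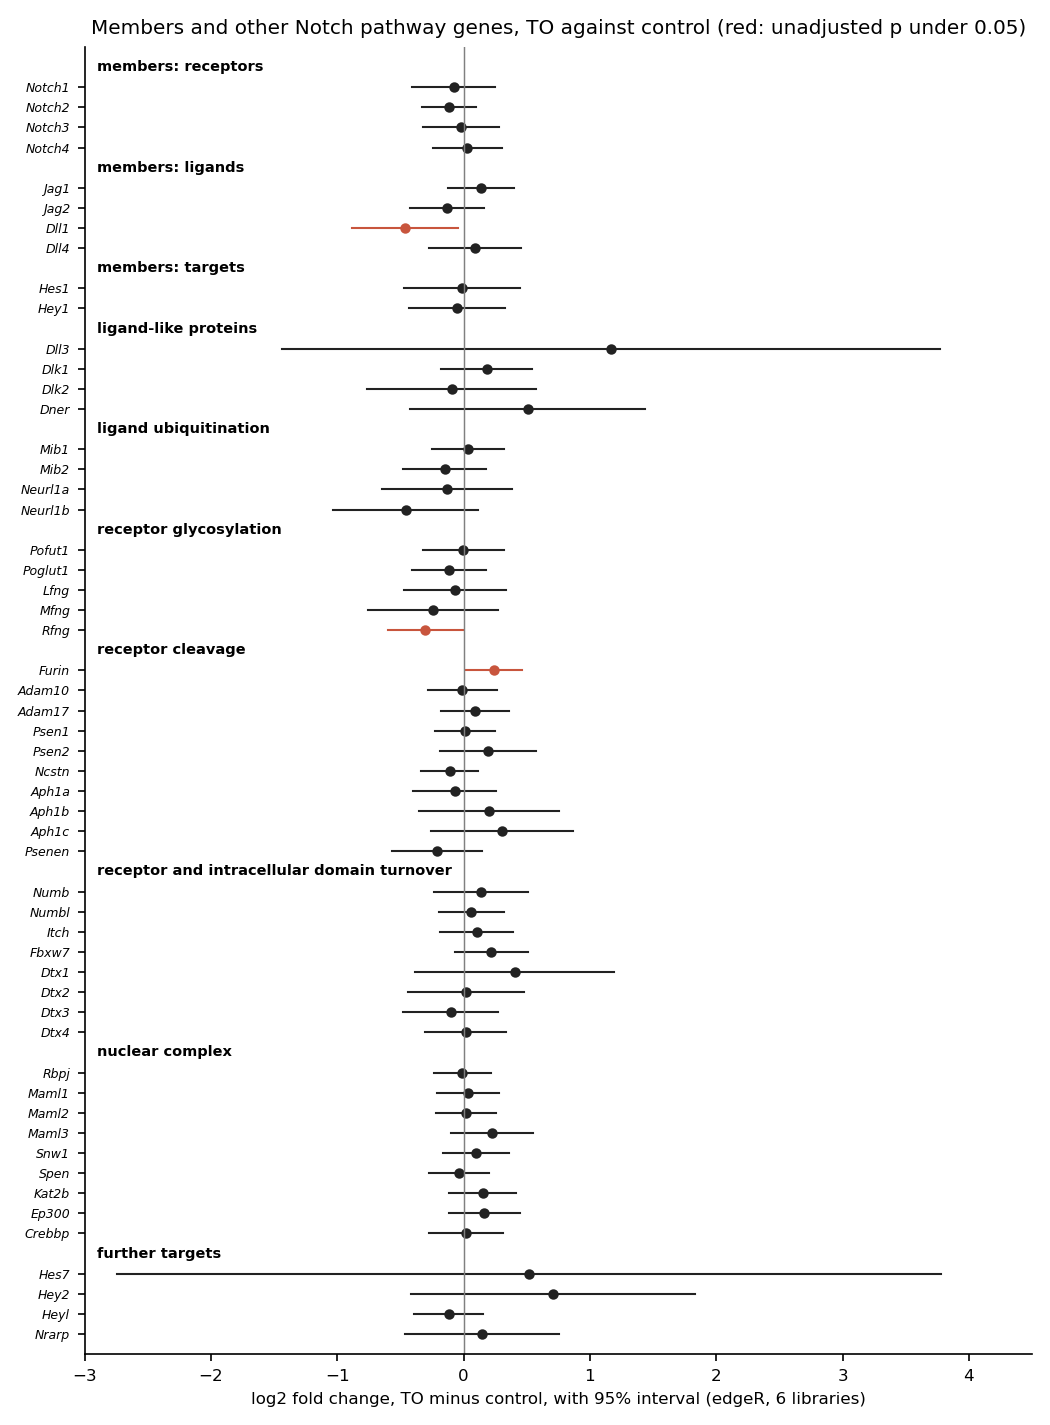
Log2 fold change, TO minus control, of the 10 members and of other pathway genes, by role (x axis, log2 scale; points, edgeR estimates over 6 libraries; lines, 95% intervals). Dll1, Rfng and Furin are drawn in red for an unadjusted p under 0.05; no adjusted p was below 0.907.

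The gene most like each member was sought among 10802 others with a mean of at least 10 CPM, by the Pearson correlation of log2 CPM over the 7 libraries without TO 1. The highest correlations were those of Jag1 with Tmf1 (r = 0.998), Dll4 with Nudt18 (0.991), Notch3 with Tpi1 (0.989), Hes1 with Tmem234 (0.988) and Notch1 with Rfx3 (0.985). Those of Hey1 with Pls1 (0.983), Jag2 with Bbs12 (0.982), Notch4 with Isyna1 (0.976), Dll1 with Ppard (0.976) and Notch2 with Cplane1 (0.961) followed. With 7 points that share library composition, 8 to 420 genes had a correlation above 0.9 with a given member, so these names are a description only. No nearest gene was itself a member or another gene of the pathway list.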

How the data were processed

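The authors prepared the 4 control and 4 TO libraries from whole-lung RNA with NexteraXT, sequenced 150-bp read pairs and aligned them to GRCm38 with STAR. The version of STAR and the annotation are not given in the sources used here. The deposited files hold unnormalized counts, 1 per gene ID and library, for both strands together (used here) and for each strand. The strands held 49.9% to 50.1% each, so the counts are unstranded, and pairs on more than 1 gene were left out of the unstranded column. Symbols, lengths and coordinates were taken from GENCODE M21, to which 55144 of 55385 IDs matched.

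Genes with at least 5 read pairs in 3 or more libraries were tested. TO and control were contrasted in edgeR 4.0.16 (R 4.3.3) with TMM factors and a quasi-likelihood fit. The p-values were adjusted after Benjamini and Hochberg across every tested gene, and a gene was called under 0.1. The threshold and choice of 3 against 3 lungs follow the study, which used DESeq2 and words its filter in 2 ways. The one with 3 or more libraries was used here (21859 genes), and 5 read pairs in every library (17229 genes) was an alternative. Alternatives were DESeq2 1.42.0, limma 3.58.1 (voom), other scaling and filters, all 8 or 7 libraries, each library left out and replicate blocks. Scripts were tested on simulated data. CPM used TMM factors of all 8 libraries, and log2 CPM a prior count of 2. Library totals alone were used for the worth of 1 read pair and for the limits of Hes5. Read pairs carry no molecular identifiers, so the counting intervals and limits cover counting error only. The intervals of log2 fold changes come from the edgeR fit and rest on the spread between libraries. Replicates are separate samples in the labels, no source names their litters, and the p-values measure only the spread between these samples.

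The members and all gene lists were chosen with earlier results of these data known. The text names all members, the other pathway gene with the highest level per kilobase in each role and any with an unadjusted p under 0.05. A gene that would qualify is counted with its list but its own values are left out. Further genes (Dner, Fbxw7, Hey2, Hes5, Hes7, Nrarp, Cd3e, Ptcra, Tagln, Des) were named after their values were seen. Figures were drawn in Python 3.11.15.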

Additional observations from a re-analysis of the deposited data

Results flagged for a closer look

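In groups of 4 libraries, the gap of the outermost library to its neighbour was tested against the range of the group (Dixon's 95% value) for 18 genes, the members and the other pathway genes named by rule, in 36 groups. Chance alone gives about 1 in 20, and 3 were found. Dll1 stood apart in control 3 at 14.3 CPM, where the other controls had 10.9 to 11.3 CPM. It also stood apart in TO 1 at 17.2 CPM, where the other TO lungs had 7.58 to 8.83 CPM, and that value came from 5 read pairs. Mib1 stood apart in TO 3 at 226 CPM, with 178 to 186 CPM in the other TO lungs.

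Outside the pathway, the 9 thymocyte genes summed to 485 CPM in TO 1, above the 2.08 to 23.9 CPM of the other libraries. This is the library in which Notch1 was highest. The part of these cells in the levels of TO 1 was not tested.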

How the results depend on the processing

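No member and none of the other pathway genes was called under any of the 17 alternatives. Of the members, Notch2, Jag2 and Dll1 kept the sign of their log2 fold change in all 17, from -0.16 to -0.09, from -0.24 to -0.02 and from -0.56 to -0.42. Rfng, Heyl and Furin did so too. The count of genes called over all genes was 0 in the main comparison with edgeR, and 44 with DESeq2, 40 with no filter on low counts, 219 with a replicate block in 6 libraries and 3 with the block in all 8. Among the 6 libraries, control 1 and TO 3 have no library of the same number in the other group. The block there therefore contrasts only controls 2 and 4 with TO 2 and 4, and its 219 calls rest on these. Leaving out 1 library gave 0 to 144 genes, with 52 without control 4 and 144 without TO 4. The cause was not tested.

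Estimates near 0 changed sign. With all 8 libraries the log2 fold change was 0.039 for Notch1, -0.012 for Notch4, -0.095 for Jag1, -0.069 for Dll4 and -0.12 for Mib1. With 7 libraries it was 0.026 for Hes1 and -0.10 for Mib1. Adam10 was at 0.00087 with DESeq2, 0.00066 with size factors of DESeq2 in edgeR and 0.0019 with upper quartile factors. With single libraries left out, the estimates ranged from -0.18 to 0.027 for Notch1, -0.098 to 0.094 for Notch3, -0.053 to 0.099 for Notch4, -0.014 to 0.23 for Dll4, -0.18 to 0.18 for Hes1, -0.19 to 0.12 for Hey1, -0.012 to 0.31 for Dlk1, -0.068 to 0.10 for Mib1, -0.081 to 0.075 for Adam10 and -0.24 to 0.011 for Dtx3. Set against marker genes, Hey1 was -0.22 with 8 libraries and -0.064 with 7, and Notch3 was 0.031 with 8. With single libraries left out, these differences ranged from -0.12 to 0.29 for Notch1, -0.045 to 0.33 for Dll4 and -0.036 to 0.19 for Hey1.

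Same-numbered libraries of the 2 groups had deviations from their group means that correlated at 0.052, 0.13, 0.16 and 0.071 over genes. The best match with another number was at 0.097, 0.0045, -0.016 and 0.022, so for 3 of the 4 the best match was the same number. Number 1, the exception, involves TO 1 with its 270078 read pairs. In the 6 libraries the best match was the same number for number 2 but not for number 4. These low correlations do not establish pairs and cannot exclude them. With the replicate block in all 8 libraries, the estimates that changed sign were 0.028 for Notch1, -0.036 for Notch4, -0.12 for Jag1, -0.082 for Dll4 and -0.11 for Mib1, and, against marker genes, -0.22 for Hey1 and 0.031 for Notch3. With the block in 6 libraries, where only numbers 2 and 4 occur in both groups, they were -0.062 for Mib1 and 0.12 for Adam10.

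Against a mural list without Tagln and Des, Notch3 was 0.021 in 6 libraries and 0.11 in all 8. These lists, adding the counts of both strands and the coding length were chosen after seeing the data. Adding the strands left the log2 fold change of Dll1 at -0.46 and that of Dll4 at 0.15. The intervals given set what 3 libraries per group can show, and in TO 1 depth limits every value.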
